A study of Bos taurus with 4 samples.

Results

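The genes described here are 7 protein-coding genes of the bovine mitochondrial genome: MT-CO1, MT-CO2, MT-CO3, MT-CYB, MT-ND1, MT-ND4 and MT-ATP6. They were chosen by Ensembl identifier, and all 7 of the 7 were found among the 24616 rows of the deposited expression table. The table holds identifiers only, so the symbols are those that came with the selection of the identifiers. Gene expression was measured by RNA sequencing (mRNA, read pairs of 150 bases) in 2 bovine sources with 2 libraries each: mammary tissue from females and lymphocytes from males, all of the breed labelled "Hostein". No treatment, age or lactation stage is labelled, and sex cannot be told apart from tissue. The title of each mammary library also holds the letters "dup", which the lymphocyte titles lack and whose meaning is not given. Each title holds a number of its own, whose meaning is not given, and the labels do not state that the libraries of a tissue came from separate animals, so the spread between them may be technical. With no names in the table, the tissue labels were not checked against marker genes.

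The mitochondrion keeps a small circular genome that encodes core subunits of the respiratory chain, while most subunits are encoded in the nucleus. The mitochondrial mRNAs are transcribed together as long precursors and are cut apart mainly at the tRNAs that lie between them. They mostly carry short poly(A) tails, so selection of mRNA by that tail can capture them. MT-ND1 and MT-ND4 are membrane subunits of complex I (NADH dehydrogenase), and MT-CYB is the cytochrome b of complex III. MT-CO1, MT-CO2 and MT-CO3 form the catalytic core of complex IV (cytochrome c oxidase), and MT-ATP6 is a membrane subunit of the proton channel of ATP synthase, complex V. Milk-secreting epithelium is rich in mitochondria, and lymphocytes at rest are small cells that raise respiration when activated.

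In the RefSeq annotation of another bovine assembly (ARS-UCD2.0), all 7 genes were found by their RefSeq symbols on the mitochondrial chromosome, among 13 protein-coding genes. Their order there is ND1, COX1, COX2, ATP6, COX3, ND4 and CYTB. COX1 and COX2 are direct neighbours, and so are ATP6 and COX3. ATP6 overlaps both ATP8 and COX3, ND4 overlaps ND4L, and the other genes of the 7, COX3 apart, overlap no protein-coding gene. How the authors' counting shared out fragments between overlapping genes, opposite strands or nuclear copies of mitochondrial DNA is not given in the sources used here, so the levels of all 7 are uncertain in that respect, and those of MT-ATP6, MT-CO3 and MT-ND4 also through the overlaps. The 6 other mitochondrial protein genes (ND2, ND3, ND4L, ND5, ND6 and ATP8) and the nuclear subunits were not analysed here, as their rows are not named.

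Values are FPKM as deposited, that is, fragments scaled by transcript length and by the mapped fragments of the library. Levels of different genes can thus be set side by side only within the counting limits given above. Where 2 values of a tissue are given, replicate 1 comes first. FPKM keeps no read count, so the depth behind each value is unknown and no counting interval is given. All 7 genes were among the 200 most abundant rows of every library. In lymphocytes, MT-CO1 ranked 15th and 14th and MT-CO3 18th and 20th. In mammary tissue none of the 7 was among the 20 highest rows; MT-CO1 ranked 27th and 21st. The lowest rank of any of the genes was that of MT-ATP6 in mammary replicate 1, 165th.

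The complex IV mRNAs were the most abundant of the 7. MT-CO1 (ENSBTAG00000043561), the subunit that holds the oxygen-reducing site, measured 2622 and 3094 FPKM in the mammary libraries and 4320 and 4935 FPKM in the lymphocyte libraries. MT-CO3 (ENSBTAG00000043560) measured 1960 and 1834 FPKM in mammary tissue and 2680 and 3516 FPKM in lymphocytes. MT-CO2 (ENSBTAG00000043556), which takes up electrons from cytochrome c, measured 1546 and 1418 FPKM in mammary tissue and 1938 and 2416 FPKM in lymphocytes. For each of these genes both mammary libraries lay below both lymphocyte libraries.

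The complex I genes lay in the middle of the range. MT-ND1 (ENSBTAG00000043558) measured 953.9 and 1073 FPKM in the mammary libraries and 1408 and 1473 FPKM in the lymphocyte libraries, again without overlap. MT-ND4 (ENSBTAG00000043568) measured 1019 and 1095 FPKM in mammary tissue and 1073 and 1639 FPKM in lymphocytes. Lymphocyte replicate 2 stood above the other libraries for MT-ND4, while lymphocyte replicate 1 lay between the mammary libraries.

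MT-CYB and MT-ATP6 were the least abundant. MT-CYB (ENSBTAG00000043550) measured 525.1 and 555.5 FPKM in the mammary libraries and 486.2 and 606.8 FPKM in the lymphocyte libraries, so that the lymphocyte values enclosed the mammary ones. MT-ATP6 (ENSBTAG00000043584) measured 377.2 and 342.5 FPKM in mammary tissue and 409.0 and 460.8 FPKM in lymphocytes, with no overlap and a narrow gap. In all, 5 of the 7 genes had mammary values below both lymphocyte values; the same was true of 52.7% of the 12311 rows tested, and 66.4% of the rows did not overlap in either direction.

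**Figure D1:**
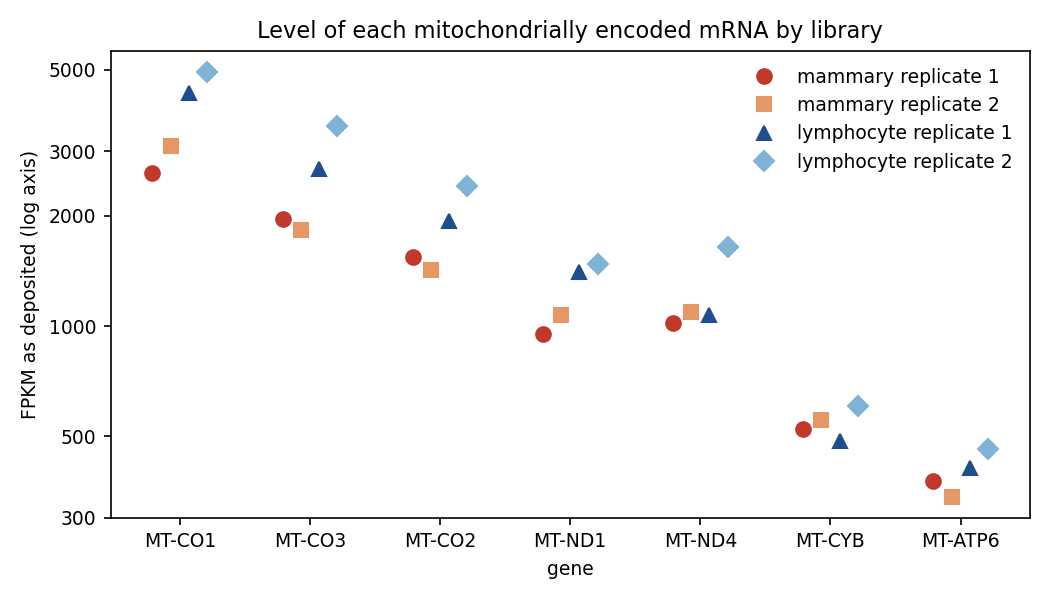
FPKM as deposited (vertical log axis) of each of the 7 genes (horizontal axis) in the 4 libraries, 1 symbol per library. MT-CO1 is highest and MT-ATP6 lowest in every library; the tissues overlap for MT-ND4 and MT-CYB.

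The order of the levels was nearly fixed. In each of the 4 libraries MT-CO1 came first, then MT-CO3, then MT-CO2, with MT-CYB next to last and MT-ATP6 last. The genes MT-ND4 and MT-ND1 shared the places between, and their order was not separated from the spread: the ratio of MT-ND1 to MT-ND4 was 0.937 and 0.980 in the mammary libraries and 1.31 and 0.899 in the lymphocyte libraries. MT-CYB exceeded MT-ATP6 by a ratio of 1.19 to 1.62 over the libraries. MT-ATP6 and MT-CO3 adjoin and overlap on the genome, and how fragments were shared between them is not known. MT-CO3 was 5.20 and 5.35 times as high as MT-ATP6 in the mammary libraries and 6.55 and 7.63 times as high in the lymphocyte libraries. For the neighbours MT-CO1 and MT-CO2, the ratio was 1.70 and 2.18 in mammary tissue and 2.23 and 2.04 in lymphocytes.

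None of the 7 genes passed the test between mammary tissue and lymphocytes. On log2(FPKM + 1), as deposited, limma's moderated test called 0 of 7 at a Benjamini-Hochberg adjusted p below 0.05 over all rows. Of all 12311 rows, 19.2% were called, and 10.7% were called lower in mammary tissue. At an unadjusted p below 0.05 there were 0 of 7, against 29.3% of all rows. The log2 difference, mammary minus lymphocyte, was -0.70 for MT-CO1 (SE 0.95, limma adjusted p = 0.61), -0.69 for MT-CO3 and -0.55 for MT-CO2. It was -0.51 for MT-ND1, -0.33 for MT-ND4, -0.27 for MT-ATP6 and -0.01 for MT-CYB (SE 0.92, limma adjusted p = 0.995). All 7 estimates were thus below 0, with a median of -0.51, yet the median of all rows was lower still, at -0.81. Each estimate lay 0.11 to 0.80 above that of the median row. Only 2 of 7 did so without mammary replicate 2, and 2 of 7 without the filter on low rows. With a pseudocount of 5 it was 3 of 7. Under scalings described below it was 5 of 7 with a common FPKM total and 4 of 7 with quantile normalization. The standard errors are wide because the test gave each row the spread typical of its level and not its own. For these genes that spread was 0.91 to 0.95 on the log2 scale. It includes the difference between mammary replicates, whose median was -1.05 over all rows and 0.08 in these genes. Each estimate was smaller in size than its standard error, so 0 of 7 cannot show that the tissues were alike.

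As deposited, the mammary replicates were closer in these genes than in most rows. Mammary replicate 2 was between 0.908 and 1.18 times mammary replicate 1 over the 7 genes, with MT-ATP6 the lowest and MT-CO1 the highest. On log2(FPKM + 1) this was a median difference of 0.08, against -1.05 for all rows tested, of which 93.1% were lower in mammary replicate 2. Only 6.90% of the rows had a mammary replicate difference no larger than the largest among the 7 genes. Among 142 other rows with a mean at or above that of MT-ATP6, the median difference was -1.17 and 4.23% were within the same limit. In lymphocytes, replicate 2 was 1.05 to 1.53 times replicate 1, with a median log2 difference of 0.32 against 0.40 for all rows. The quartiles of all rows were 0.12 and 0.62. MT-ND1, at 0.06, lay below them, and the other genes lay between them, with MT-ND4 furthest apart at 0.61. All but MT-ND4 lay below the median of all rows.

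**Figure D2:**
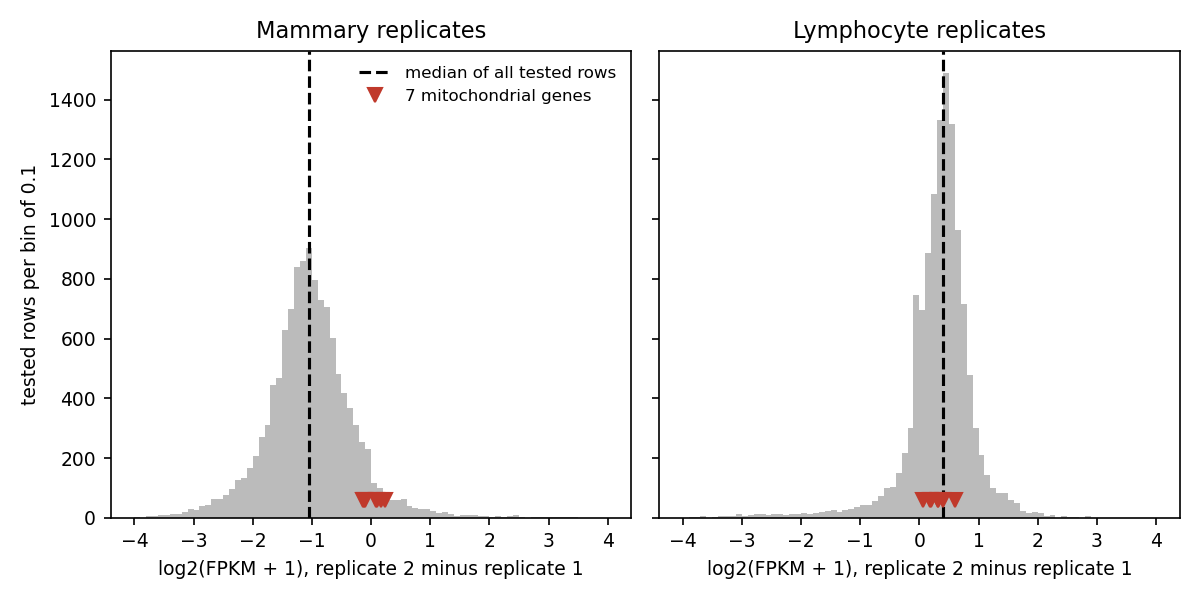
Histograms of the difference in log2(FPKM + 1) between replicates 2 and 1 (horizontal axis) over all 12311 tested rows (vertical axis, rows per bin of 0.1), for mammary tissue (left) and lymphocytes (right); 52 and 6 rows beyond 4 in either direction are not drawn. The triangles mark the 7 genes, which lie around 0 in mammary tissue while the dashed median of all rows is at -1.05. In lymphocytes they run from 0.06 for MT-ND1 to 0.61 for MT-ND4, and all but MT-ND4 lie below the median of 0.40.

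As deposited, MT-CYB was among the steadiest rows of the table over all 4 libraries. Its highest library was 1.25 times its lowest, and only 32 of the 12311 rows (0.26%) spanned a smaller range on log2(FPKM + 1). MT-ATP6 spanned 1.35-fold, with 81 rows steadier, and MT-ND1 spanned 1.54-fold. MT-CO3 varied most, by 1.92-fold, and 8.72% of rows still had a smaller range. The median range of all rows was 1.88 on the log2 scale, against 0.69 for the 7 genes. This steadiness was lost under the median-of-ratios scaling described next: MT-CYB then spanned 3.45-fold, MT-CO2 the least at 2.39-fold, and 57.3% to 71.1% of rows had a smaller range than each of the 7 genes.

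The tissue difference turned with the scaling. Median-of-ratios scaling, which divides each library by a factor that brings its typical row to the same level, moved the median row from -0.81 to -0.02. After it all 7 genes had estimates above 0: 0.99 for MT-CYB, 0.73 for MT-ATP6, 0.67 for MT-ND4, 0.49 for MT-ND1, 0.45 for MT-CO2 and 0.31 each for MT-CO3 and MT-CO1. Again 0 of 7 passed by limma, where 20.6% of all rows were called. The lowest limma adjusted p was 0.27, for MT-CYB. At an unadjusted p below 0.05 there were 0 of 7, against 38.8% of all rows. Under this scaling the mammary replicates no longer agreed, since replicate 2 became 2.36 to 3.07 times replicate 1. For MT-CO1 the scaled values were 2316 and 7111 in the mammary libraries, on both sides of the lymphocyte values of 3580 and 3013. The scaled MT-CYB was the 1 gene without overlap, at 463.8 and 1277 in mammary tissue and 403.0 and 370.4 in lymphocytes; 70.7% of all rows did not overlap under this scaling, and 34.1% were higher in mammary tissue without overlap. The direction rested on mammary replicate 2, without which the scaled estimates had a median of -0.17 and 2 of 7 were above 0, whereas without mammary replicate 1 the median was 1.27 and 7 of 7 were above 0.

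With each library rescaled to a common FPKM total, all 7 estimates were below 0, from -1.40 for MT-CO1 to -0.71 for MT-CYB. By limma 0 of 7 passed, although 54.6% of all rows were called. At an unadjusted p below 0.05 there were 0 of 7, against 63.1% of all rows. Quantile normalization, which gives all libraries 1 common distribution of values, put MT-CO1 at -1.67 (SE 0.32, limma adjusted p = 0.033). This was the 1 call among the 7 genes under the 4 scalings run, where 24.1% of all rows were called. MT-CO3 missed the threshold there at -1.17 (limma adjusted p = 0.056), while MT-CYB, MT-ATP6 and MT-ND4 had estimates above 0. Under each of the 4 scalings MT-CYB had the highest estimate of the 7; scalings that divide a library by 1 factor keep that order by construction.

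**Figure D3:**
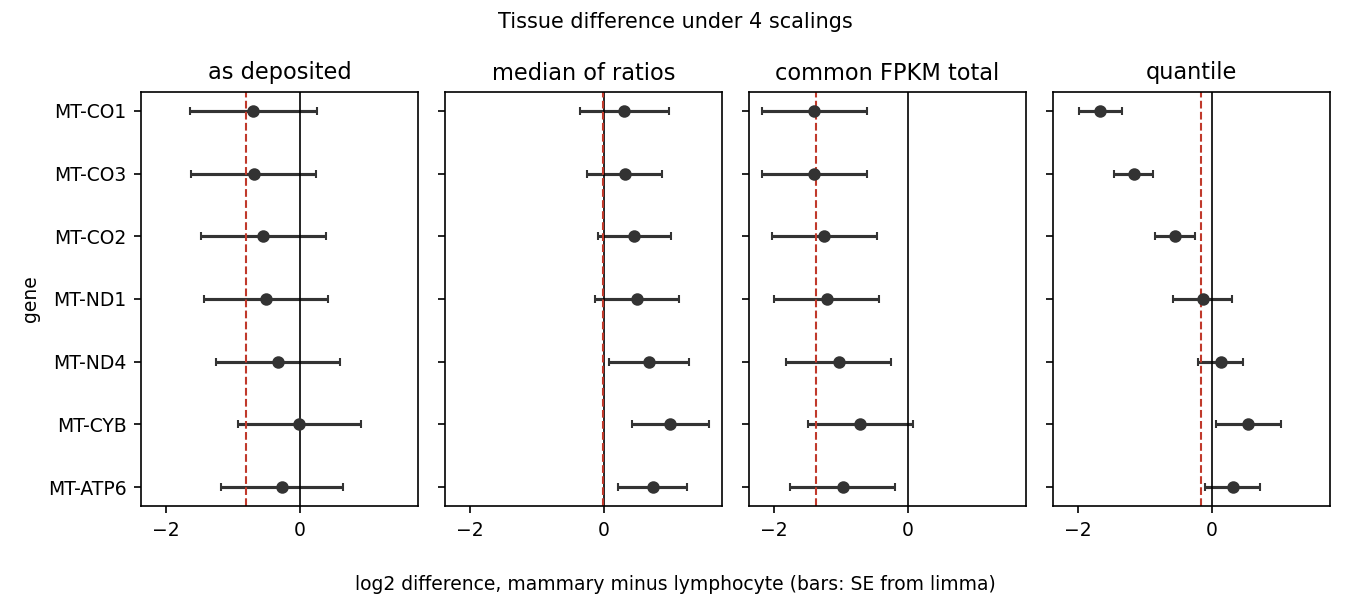
Log2 difference, mammary minus lymphocyte (horizontal axis), of each of the 7 genes (vertical axis) under 4 scalings, with limma standard errors as bars. The solid line is 0 and the dashed line the median of all tested rows; all points lie below 0 as deposited and above 0 after median-of-ratios scaling, and MT-CYB lies to the right of the MT-CO genes in each panel.

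As a share of the summed FPKM of the table, the 7 genes together took 0.586% and 0.680% in the mammary libraries and 1.49% and 1.56% in the lymphocyte libraries. The mean was 0.633% ± 0.066 (SD, n = 2) in mammary tissue and 1.52% ± 0.052 (SD, n = 2) in lymphocytes, 2.41 times as high. MT-CO1 alone took 0.171% and 0.223% of the mammary totals and 0.521% and 0.511% of the lymphocyte totals. MT-CYB differed least, at 0.0342% and 0.0401% against 0.0587% and 0.0629%. Each of the 7 genes had a lower share in both mammary libraries, as did 73.8% of all rows. The exact two-sided permutation test over the 4 libraries gave p = 0.33 for the summed share, the smallest value that 2 against 2 allows. A share can also be lower because other rows fill more of the total, as described next. In these bulk libraries this, fewer mitochondria-rich cells and less of these mRNAs per cell cannot be told apart. The share without the most abundant other rows is given below, and the cause was not tested.

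This share depended on a few rows outside the 7. The 20 most abundant other rows took up 76.8% and 87.4% of the mammary totals and 60.3% and 54.2% of the lymphocyte totals. With these rows left out of the total, the 7 genes took 2.53% and 5.38% in mammary tissue and 3.74% and 3.41% in lymphocytes. The lymphocyte values then lay between the mammary values, and the exact permutation p was 1.0. The summed FPKM of the 7 genes itself was 9003 and 9412 in mammary tissue and 12315 and 15046 in lymphocytes, a ratio of 1.49 between the lymphocyte and mammary means (exact permutation p = 0.33).

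Proportions among the 7 genes are free of any scaling of a whole library. MT-CO1 made up 29.1% and 32.9% of the summed FPKM of the 7 in the mammary libraries and 35.1% and 32.8% in the lymphocyte libraries. MT-CO3 made up 21.8% and 19.5% in mammary tissue and 21.8% and 23.4% in lymphocytes, and MT-CO2 17.2% and 15.1% against 15.7% and 16.1%. For these genes, and for MT-ND1 at 10.6% and 11.4% against 11.4% and 9.79%, the tissues overlapped.

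In relative terms the proportion of MT-CYB differed most, although in percentage points those of MT-CO1 (-2.94, mammary minus lymphocyte) and MT-CO3 (-1.94) differed more than that of MT-CYB (1.88). MT-CYB made up 5.83% and 5.90% of the 7 in the mammary libraries and 3.95% and 4.03% in the lymphocyte libraries. The means were 5.87% ± 0.049 (SD, n = 2) and 3.99% ± 0.060 (SD, n = 2), a ratio of 1.47, so the gap between tissues was far wider than that between replicates. MT-ATP6 had a smaller gap, with 4.19% and 3.64% in mammary tissue and 3.32% and 3.06% in lymphocytes. MT-ND4 was at 11.3% and 11.6% in mammary tissue and 8.72% and 10.9% in lymphocytes, where lymphocyte replicate 1 set most of the gap. These 3 of 7 genes did not overlap, all with the larger proportion in mammary tissue; relative to the same sum, 52.5% of all rows did not overlap and 19.4% were higher in mammary tissue without overlap. For each of these genes the exact two-sided permutation test gave p = 0.33, the smallest possible, and 0.78 after adjustment over the 7.

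**Figure D4:**
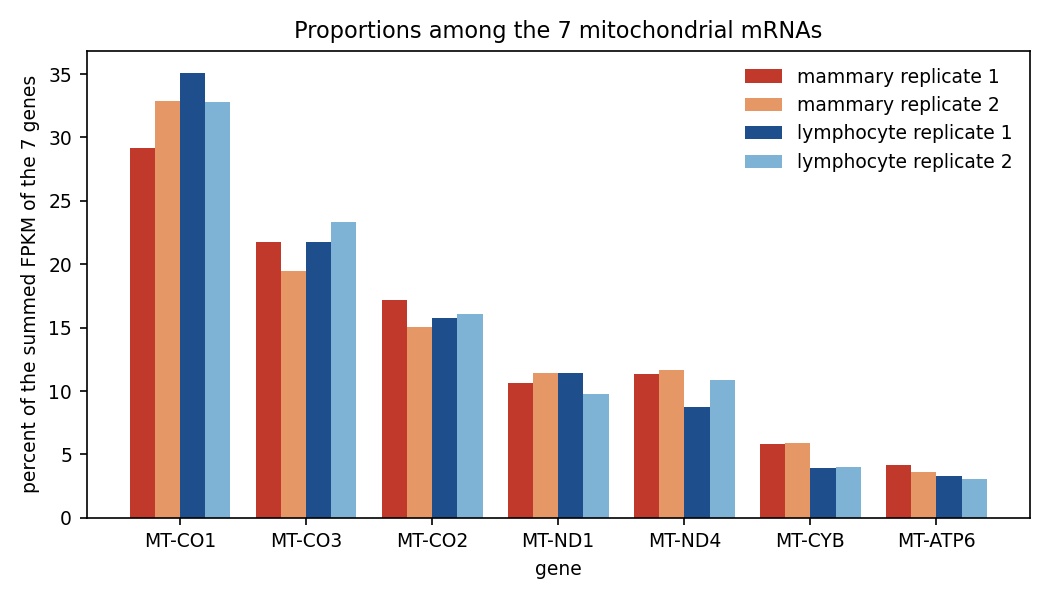
Percent of the summed FPKM of the 7 genes (vertical axis) taken by each gene (horizontal axis) in the 4 libraries, 1 bar per library. MT-CYB is at 5.83% and 5.90% in the mammary libraries and 3.95% and 4.03% in the lymphocyte libraries; MT-CO1 takes the most in each.

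Because proportions must sum to a fixed total, the genes were also compared pair by pair. Of the 21 ratios between members, 14 did not overlap between the tissues, and these included all 6 ratios with MT-CYB. That share lay within the range of other rows: of the ratios of the other 12304 tested rows to a member, 44.1% (to MT-CO1) to 68.9% (to MT-CYB) did not overlap. The ratio of MT-CO1 to MT-CYB was 4.99 and 5.57 in the mammary libraries and 8.89 and 8.13 in the lymphocyte libraries. MT-CO3 stood to MT-CYB as 3.73 and 3.30 in mammary tissue and as 5.51 and 5.79 in lymphocytes. MT-CO2 stood to MT-CYB as 2.94 and 2.55 in mammary tissue and as 3.99 and 3.98 in lymphocytes. The lymphocyte replicates were thus nearly equal in that ratio, and the mammary replicates lay below both.

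Relative to the complex I genes, MT-CYB was higher in mammary tissue too. Its ratio to MT-ND1 was 0.550 and 0.518 in the mammary libraries and 0.345 and 0.412 in the lymphocyte libraries. Within complex IV, the ratio of MT-CO1 to MT-CO3 was 1.34 and 1.69 in mammary tissue and 1.61 and 1.40 in lymphocytes, which overlapped. MT-CO2 to MT-CO3 was 0.789 and 0.773 in mammary tissue and 0.723 and 0.687 in lymphocytes, a small gap without overlap. None of the 21 ratios can reach an exact permutation p below 0.33.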

How the data were processed

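The deposited table gives FPKM, computed by the authors, for 24616 Ensembl identifiers in 4 libraries; the submitters' processing notes name Trimmomatic 0.39, STAR, Cufflinks and the assembly UMD3.1, whose roles and settings are not stated. Each of the 4 columns matched the title of 1 sample. Replicates were numbered by accession. The RefSeq gene table (ARS-UCD2.0) was used for names and neighbours; 0 of the identifiers are listed in it. The 12311 rows that reached 1 FPKM in 2 or more libraries were tested on log2(FPKM + 1) with limma 3.58.1 in R 4.3.3 (two-sided, mean-variance trend, Benjamini-Hochberg over all rows, threshold 0.05), unscaled, tissue as the only term. The prior degrees of freedom were infinite. The same test was also run on simulated data built from the observed means and spread. The noise there was drawn independently for each row and library, without the shift shared by most rows between the mammary replicates. That run is therefore no check of the test on these data. Single values were compared by exact two-sided permutation over libraries (scipy 1.17.1). Alternatives were other pseudocounts, filters, scalings (median-of-ratios factors over rows above 0 in all 4 libraries) and denominators, no trend, and each library left out. The 7 genes are named because they were the selection; the members, the marker and pathway lists and the tests were chosen with earlier results of these data known. Lists of nuclear respiratory chain genes, of mitochondrial RNA and content genes and of cell type markers were not tested, as rows carry no names. Depth per library is unknown, so counting error was not estimated.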

Additional observations from a re-analysis of the deposited data

How the results depend on the processing

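Median-of-ratios scaling turned all 7 estimates as deposited, to 0.31 for MT-CO1, 0.45 for MT-CO2, 0.31 for MT-CO3, 0.99 for MT-CYB, 0.49 for MT-ND1, 0.67 for MT-ND4 and 0.73 for MT-ATP6. Quantile normalization turned MT-CYB to 0.54, MT-ND4 to 0.13 and MT-ATP6 to 0.31 and called 1 of 7 genes (MT-CO1, -1.67); the cause was not tested. Pseudocounts of 0.1 and 5, no filter, a filter at 5 FPKM, a common FPKM total and a fit without the trend left every direction and call as it was, but without the filter only 0.0259% of all rows were called, so 0 of 7 there shows no stability. Leaving out each library called 0 of 7 by limma, as deposited and after median-of-ratios scaling (an alternative chosen after seeing the data), with the lone library assumed to vary like the other tissue. Without a mammary library 12.1% to 31.1% of all rows were called. Without a lymphocyte library at most 0.885% were, and 0% after scaling, so 0 of 7 was nearly fixed there. The most genes with an unadjusted p below 0.05 were 4 of 7, without mammary replicate 1 after scaling, where 44.9% of all rows had one. Over these fits, with and without scaling, the log2 differences ran from -0.82 to 1.11 for MT-CO1, -0.71 to 1.08 for MT-CO2, -0.89 to 0.95 for MT-CO3, -0.17 to 1.72 for MT-CYB, -0.59 to 1.27 for MT-ND1, -0.63 to 1.41 for MT-ND4 and -0.36 to 1.35 for MT-ATP6. Over all 16 alternatives the lowest limma adjusted p was 0.033 for MT-CO1 and 0.054 for MT-CYB.

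The log2 ratio of the summed share, mammary over lymphocyte, was -1.27; it was 0.15 without the 20 most abundant other rows and 0.61 for the sum after median-of-ratios scaling. Leaving out each library, with either total (the second chosen after seeing the data), gave -1.38 to 0.59. Centring log2 FPKM on the mean of the 7 left 5 of 7 genes without overlap in place of 3: MT-CO1, MT-CO2 and MT-CO3 lower in mammary tissue, MT-CYB and MT-ATP6 higher, while MT-ND4 then overlapped; 56.7% of all rows did not overlap under this centring. It turned the log2 ratio of the proportion to -0.11 for MT-CO2 and -0.072 for MT-ND1, whose ratios ran from -0.077 to 0.11 and from -0.056 to 0.17 with each library left out. For MT-CYB that ratio was 0.56 and stayed between 0.54 and 0.57. Proportions per fragment were not run, as row lengths of the authors' annotation are not known. No paired analysis was possible, as mammary tissue came from females and lymphocytes from males, so no animal gave both. Depth is unknown, so its limits on these genes cannot be stated.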

Other observations

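The rows whose pattern over the 4 libraries was most like the mean pattern of the 7 genes were sought among the 398 other rows with a mean of at least 100 FPKM, by the root mean square difference of centred log2(FPKM + 1). The closest was ENSBTAG00000043564, at 0.09, with 1360 and 1253 FPKM in mammary replicates 1 and 2 and 1749 and 1881 FPKM in lymphocyte replicates 1 and 2. The second was ENSBTAG00000043577, at 0.13, with 447.0 and 408.6 FPKM in mammary tissue and 629.2 and 642.1 FPKM in lymphocytes. Among the 7 genes the same measure ran from 0.08 for MT-CO2 to 0.21 for MT-CYB, so the closest row was nearer to the mean pattern than 6 of the 7 genes were. Both identifiers lie within the run of numbers that the identifiers of the 7 genes span. The rows carry no names, so whether they are further mitochondrial genes was not tested. With 4 libraries this measure describes likeness only.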
